A study of Mus musculus with 3 samples.

Results

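Effector CD8 T cells are the killer lymphocytes of the blood that have left the naive state. Here they were chosen by measured transcripts, as single cells in which T-cell receptor complex, CD8 and Ccl5 transcripts were found together with at least 1 of Gzmk, Klrg1 or Cx3cr1. Unique molecular identifiers (UMIs), which count captured transcripts, defined the gate: 1 or more of Cd3d, Cd3e and Cd3g summed, 2 or more of Cd8a and Cd8b1 summed, none of Cd4, at most 1 of Cd79a, 3 or more of Ccl5, and 1 or more of Gzmk, Cx3cr1 and Klrg1 summed. Among 31064 kept cells of 3 blood libraries, 434 met these conditions. They were 209 cells of the aged+AA library, 185 of the aged library and 40 of the young library.

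The libraries were peripheral blood mononuclear cells of C57BL/6 mice: aged mice given AA (ascorbic acid, as the series title spells it out) for 1 month, aged mice given PBS for 1 month, and young mice given PBS for 1 month. Each group was 1 library, and the labels give no number of mice and no age beyond young and aged, where the series title says middle-aged. No difference below therefore has a replicate check, no test was made, and every interval (95%) covers counting error only.

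CD8 T cells recognise peptides on MHC class I and, once activated, kill by releasing perforin and granzymes from granules that also hold Nkg7. Granzyme A and granzyme B are the classical granule proteases, whereas granzyme K marks a memory-like population that accumulates with age in mice. Klrg1, an inhibitory lectin receptor, and Cx3cr1, the fractalkine receptor, mark terminally differentiated cells that stay in the circulation. Ccl5 is a chemokine that memory and effector CD8 cells store as ready-made transcript.

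Nearly all gate cells of every library held Nkg7 and a minority held Eomes, markers of the label that the gate did not use. The young gate was mixed. Nkg7 was found in 208 of 209 aged+AA, 185 of 185 aged and 40 of 40 young gate cells. Thinned to 1500 UMIs, it was found in 96.6%, 96.2% and 92.5% of them, against 1.52%, 2.13% and 1.21% of B cells. Eomes, a T-box factor of effector and memory cells, was counted at 91.4 CPM (a gene's UMIs scaled by the summed UMIs of the gate cells, so that libraries compare) in aged+AA, 167 in aged and 74.5 in young. It was found in 34.0%, 42.7% and 37.5% of gate cells in that order. Thinned to 1500 UMIs, these shares were 16.8%, 25.4% and 10.0%, against 0.202%, 0% and 0.202% of B cells. Both genes are also markers of natural killer cells. A Ncr1 or Klrb1c UMI, defining for natural killer (NK) cells, was present in 13 of 209 aged+AA, 9 of 185 aged and 16 of 40 young gate cells, whose median depths were 4944, 3941 and 6258 UMIs. B cells, which should lack both genes, carried such a UMI in 0.726%, 0.843% and 0.822% of cells at median depths of 3564, 3185 and 3431 UMIs. Of the 16 young cells, 11 also held 3 or more UMIs of the naive-cell genes Ccr7, Lef1, Dapl1 and Igfbp4, against 4 aged+AA cells and 1 aged cell with both. The 11 young cells had a median of 10675 UMIs, against 3471 for the 15 young cells with neither. Scrublet, which scores likely doublets, marked 1 of 209 aged+AA, 7 of 185 aged and 9 of 40 young gate cells.

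The aged gate carried myeloid and red-cell transcripts. At least 2 UMIs of 10 monocyte genes were found in 1 of 209 aged+AA, 26 of 185 aged and 0 of 40 young gate cells, the last with an exact interval up to 8.81%. Of B cells, 0.887%, 14.7% and 0.576% met the same condition. The 19 monocyte markers summed to 386 CPM in the aged+AA gate, 1327 in the aged gate and 258 in the young gate, and 15, 18 and 4 of them were detected. The 15 neutrophil markers summed to 36.7, 1463 and 0 CPM. Haemoglobin took 3.00%, 8.52% and 2.96% of gate UMIs, with over 5% in 9 aged+AA cells, 16 aged cells and 1 young cell. The part of these cells in each difference was not tested apart from leaving them out. Values written as "without the 3 kinds of cells" leave out cells with a Ncr1, Klrb1c or Trdc UMI, cells with 2 or more monocyte UMIs and cells with over 5% haemoglobin, so that 181 aged+AA, 141 aged and 22 young cells remain.

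As a share of kept cells, effector cells did not differ between aged+AA and aged blood beyond counting error. They were about 4 times as frequent in either as in young blood. They made up 1.78% (1.55 to 2.04) of kept cells in aged+AA, 1.81% (1.56 to 2.09) in aged and 0.437% (0.313 to 0.595) in young. The ratio of these shares was 0.984 (0.804 to 1.21) for aged+AA over aged and 4.15 (2.93 to 5.99) for aged over young. With the mitochondrial limit lowered to 5%, aged over young was 2.64, and without the 3 kinds of cells aged+AA over young was 6.42 instead of 4.08.

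Within the T-cell and CD8 compartments the 2 aged libraries differed. T gate cells, which met the T-cell receptor complex and Cd79a conditions, were 41.8% of kept cells in aged+AA, 25.7% in aged and 62.2% in young. Effector cells were 4.27%, 7.06% and 0.703% of them, a ratio of 0.605 (0.494 to 0.742) for aged+AA over aged. Effector cells were 9.47% (8.28 to 10.8) of CD8 gate cells in aged+AA, 21.1% (18.5 to 24.0) in aged and 2.13% (1.53 to 2.89) in young. The ratio for aged+AA over aged was 0.448 (0.366 to 0.549) and for aged over young 9.93 (7.03 to 14.4). The CD8 gate itself held 18.8% of kept cells in aged+AA, 8.58% in aged and 20.5% in young. CD8 cells outside the effector gate numbered 1997 in aged+AA, 690 in aged and 1839 in young. CD8 cells with Ccl5 but none of Gzmk, Cx3cr1 and Klrg1 numbered 969 in aged+AA, 318 in aged and 237 in young. Of all CD8 cells with 3 or more Ccl5 UMIs, 17.7% (15.6 to 20.05) were effector cells in aged+AA, 36.8% (32.6 to 41.2) in aged and 14.4% (10.5 to 19.1) in young.

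**Figure D1:**
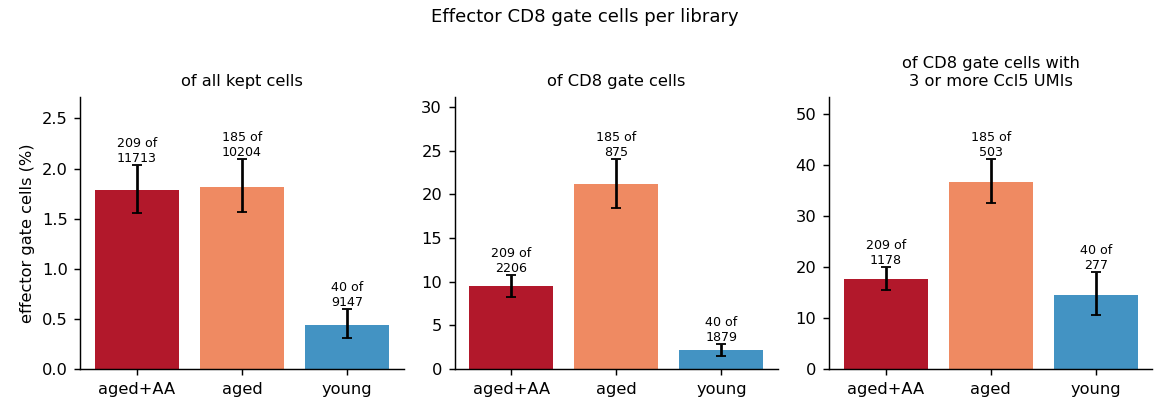
Effector CD8 gate cells as a percentage of all kept cells, of CD8 gate cells and of CD8 gate cells with 3 or more Ccl5 UMIs, for the 3 libraries; bars are shares, whiskers exact 95% binomial intervals of counting error, and the numbers above are cells. The aged+AA and aged bars are level at 1.78% and 1.81% of kept cells, but stand at 9.47% and 21.1% of CD8 gate cells.

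The Ccl5 threshold cut through few cells. The median gate cell held 154 Ccl5 UMIs in aged+AA, 119 in aged and 114.5 in young, and 2 aged+AA cells, 1 aged cell and 0 young cells lay just inside, at 3 to 5 UMIs. Just outside, at 1 or 2 Ccl5 UMIs with one of the other 3 genes, lay 1 aged+AA, 4 aged and 2 young cells. The Gzmk, Cx3cr1 and Klrg1 condition was less sharp, since 67 of 209 aged+AA, 62 of 185 aged and 16 of 40 young cells held a single UMI of the 3 genes. At these depths, cells without a UMI of a gene cannot be told from cells that do not express it.

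The 3 libraries mixed Gzmk, Klrg1 and Cx3cr1 in different proportions, described here without comparison tests because these genes chose the cells. A Gzmk UMI was present in 70.3% (63.6 to 76.4) of aged+AA, 65.4% (58.1 to 72.2) of aged and 40.0% (24.9 to 56.7) of young gate cells. Klrg1 was present in 46.4%, 29.2% and 62.5% of them, and Cx3cr1 in 39.7%, 49.7% and 57.5%. B cells carried Gzmk in at most 0.159%, Klrg1 in at most 0.296% and Cx3cr1 in at most 2.03% of cells of any library. Cells with Gzmk as the only one of the 3 genes numbered 67 in aged+AA, 67 in aged and 6 in young. Cells without Gzmk numbered 62, 64 and 24.

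**Figure D2:**
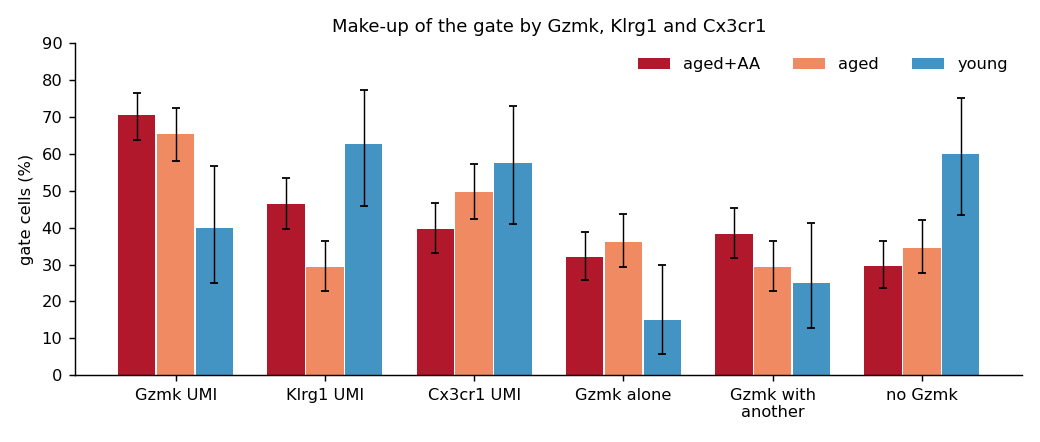
Percentage of gate cells of the aged+AA, aged and young libraries with a UMI of Gzmk, Klrg1 or Cx3cr1, and of cells with Gzmk alone, Gzmk with another of the 3 genes, or no Gzmk; whiskers are exact 95% binomial intervals. Gzmk is present in 70.3%, 65.4% and 40.0% of cells, while Klrg1 is lowest in the aged library at 29.2%.

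Set beside the other CD8 cells of their own library, gate cells carried granule protease, migration and effector factor transcripts and held less of the naive programme. The gate chose these cells, so the values are a description. Against only the CD8 cells with Ccl5 but none of Gzmk, Cx3cr1 and Klrg1, the matching gene lists stood out less. The median log2 ratio of the effector and memory transcription factors was then 0.940 in aged+AA, 0.717 in aged and 0.868 in young. Against all other CD8 cells it was 1.21, 1.02 and 1.81. Medians of the granule, migration and naive lists were also smaller in size in every library. Gzma stood at 4220 CPM in gate cells against 31.5 in other CD8 cells of aged+AA, 2614 against 107 in aged, and 4415 against 21.5 in young. Gzmb stood at 594 against 8.74, 356 against 30.3, and 419 against 6.05 CPM in the same order. Both proteases were above the other CD8 cells by over 10-fold in every library, and by less in the aged library than in the others. The reference cells differed, since 722 of 1997 in aged+AA, 268 of 690 in aged and 1436 of 1839 in young had no Ccl5 UMI. Folds of different libraries, here and below, were therefore not taken over like cells, and the young gate was mixed.

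Zeb2, a repressor that drives terminal effector differentiation, was 21.4-fold higher in gate cells of aged+AA, 9.51-fold in aged and 38.1-fold in young. S1pr5, a sphingosine phosphate receptor of circulating killer cells, was 11.5-fold, 7.42-fold and 81.2-fold higher. Ifng, the interferon gamma gene, was 9-fold, 8.47-fold and 17.9-fold higher, and the inhibitory receptor gene Pdcd1 was above the other CD8 cells in each library at low levels (12.5, 24.1 and 9.31 CPM in gate cells, against 0.924, 0.430 and 0.168 CPM). Of the calcium-binding and adhesion genes, S100a4 was 11.3-fold, 5.10-fold and 27.2-fold higher and Itgb1, the integrin beta 1 chain, 2.83-fold, 2.38-fold and 9.42-fold higher.

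On the naive side, Ccr7, the chemokine receptor for lymph node entry, was at a ratio of 0.217 in aged+AA, 0.0493 in aged and 0.414 in young. Lef1, a factor that keeps T cells naive, was at 0.305, 0.227 and 0.607. The young ratios were the nearest to 1 for both genes. Of 10176 genes with at least 50 counts in CD8 cells, 12.2% were at least 2-fold higher in the aged+AA gate, 11.7% in the aged gate and 20.6% in the young gate, and 5.06%, 6.76% and 6.35% were at least 2-fold lower. Of 22 naive and stem-like genes, 13 were at least 2-fold lower in aged+AA, 13 in aged and 2 in young. Of 22 memory and migration genes, 17, 14 and 18 were at least 2-fold higher.

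In all 3 libraries, 438 genes were at least 2-fold higher and 53 at least 2-fold lower in the gate. Ranked by the smallest of their 3 ratios, the leading genes beside those named were Ncr1, Cdk1, Bcl2a1d, Fhl2, Klra9, Osbpl3 and Alcam. Among the 10 genes lowest in every library were Auts2 (3.13, 2.19 and 0 CPM in gate cells, against 29.5, 25.4 and 26 CPM in other CD8 cells), Tdrp and Fam241a. These last 2 were at 13.3, 4.39 and 15.5 CPM against 91.0, 66.2 and 79.1 CPM, and at 78.2, 57.0 and 124 CPM against 314, 287 and 434 CPM.

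**Figure D3:**
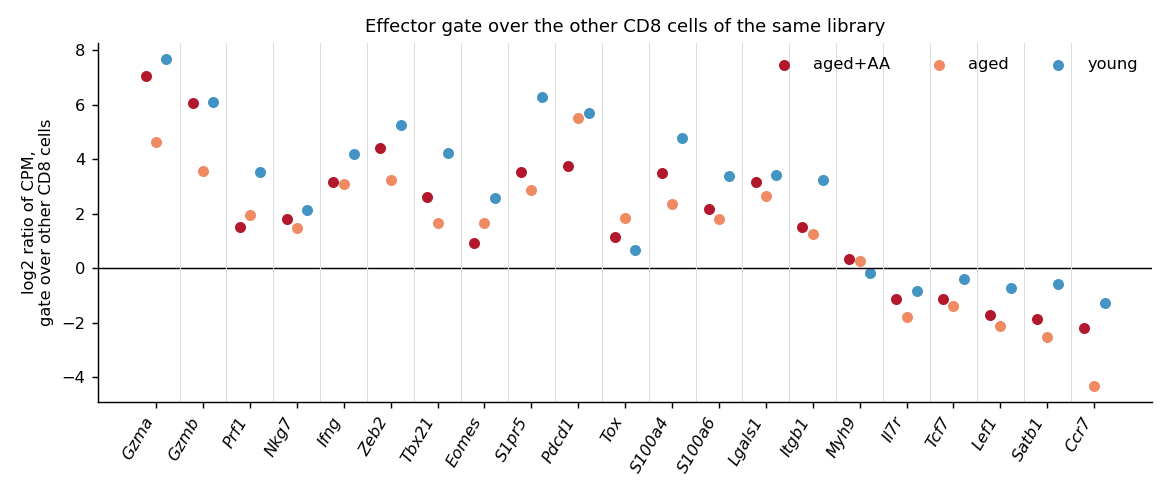
The log2 ratio of CPM in effector gate cells over the other CD8 cells of the same library, for 21 genes in the aged+AA, aged and young libraries. Gzma is at 7.07 in aged+AA, 4.62 in aged (where Pdcd1 is higher, at 5.52) and 7.68 in young, and Ccr7, Satb1, Lef1, Tcf7 and Il7r lie below 0 in all 3 libraries.

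Inside the gate, cells without Gzmk and cells with Gzmk alone had different profiles. Cells without Gzmk, which are in the gate through Klrg1 or Cx3cr1, had Gzma at 4674 CPM against 1176 in Gzmk-alone cells of aged+AA, 3178 against 374 in aged, and 5043 against 460 in young. Their ratio was 3.98 (3.58 to 4.42) in aged+AA, 8.49 (7.06 to 10.3) in aged and 11 (6.90 to 18.6) in young, the last with only 6 Gzmk-alone cells. Gzmb was 2.56-fold (1.94 to 3.4) higher in aged+AA and 2.11-fold (1.52 to 2.95) in aged, and Zeb2 3.43-fold (2.40 to 4.99) and 10.4-fold (6.14 to 18.7). The killer receptor genes Klrd1 (CD94) and Klrk1 (NKG2D) were 1.52-fold and 1.75-fold higher in aged+AA and 2.26-fold and 2.51-fold in aged.

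Gzmk-alone cells had more of Tox, the transcription factor tied to exhaustion, and of the inhibitory receptor gene Ctla4. Tox was at 38.1 CPM in cells without Gzmk against 125 CPM in Gzmk-alone cells of aged+AA, and at 50.1 against 162 CPM in aged. The Ctla4 ratio was 0.328 (0.144 to 0.683) in aged+AA and 0.148 (0.0522 to 0.344) in aged. Cxcr3, a chemokine receptor for inflamed tissue, was at a ratio of 0.585 (0.358 to 0.938) and 0.432 (0.247 to 0.724), and the costimulatory receptor gene Cd27 at 0.452 (0.271 to 0.734) and 0.597 (0.357 to 0.971). In the young library the same 4 ratios were also below 1, but only the interval of Cxcr3 lay wholly below it.

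Of 17 killer receptor genes tested, 7 in aged+AA and 13 in aged were at least 2-fold higher in cells without Gzmk, when 11.3% and 15.7% of all genes were. Of 15 genes of inhibitory receptors and exhaustion, 9 in aged+AA and 6 in aged were at least 2-fold lower, when 6.35% and 7.12% of all genes were. The list went both ways, since 4 of its genes in aged+AA and 4 in aged were at least 2-fold higher, Nr4a1 among them at 4.06-fold and 4.67-fold. NK cell and monocyte markers differed along the same split. Of 10 monocyte markers, 5 in aged+AA and 9 in aged were at least 2-fold higher in cells without Gzmk. In both libraries 0 were at least 2-fold lower, and the median log2 ratios were 1.47 and 2.93. Klrb1c was at 43.5 CPM in cells without Gzmk of aged+AA, 19.3 in aged and 159 in young, and at 0 in the Gzmk-alone cells of all 3 libraries. Fcer1g, a signalling chain shared by NK and myeloid cells, was at 158 CPM in cells without Gzmk against 7.79 CPM in Gzmk-alone cells of aged+AA, and at 606 against 76.5 CPM in aged. The part of NK cells and of monocyte transcripts in this split, Zeb2 and Nr4a1 included, was not tested.

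**Figure D4:**
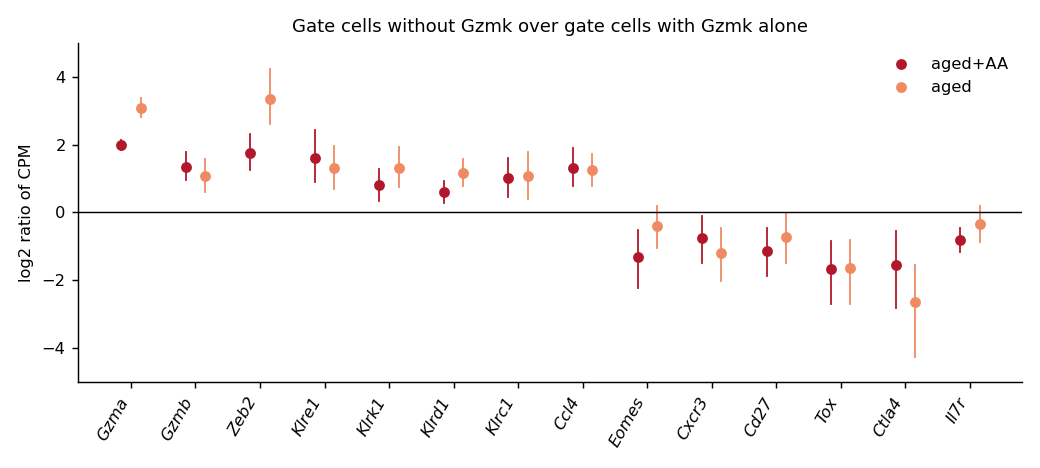
The log2 ratio of CPM in gate cells without Gzmk over gate cells with Gzmk alone, for 14 genes in the aged+AA and aged libraries; whiskers are exact 95% intervals of counting error. Gzma, Gzmb, Zeb2 and the killer receptor genes lie above 0, and Tox, Ctla4, Cxcr3 and Cd27 below 0 in both libraries.

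The first comparison within the gate, aged+AA against aged, asks what differed in effector cells of old mice given ascorbic acid. In summed counts, effector cells of the aged+AA library had more Gzma, Gzmb and the lymphocyte survival and homing genes Il7r and Ccr7. They had less Eomes, Ctla4, Tox, Nr4a2 and Ccl4. With cells thinned to an equal depth, the shares of cells with a UMI had separate intervals for Gzma and Ccr7. Those of Gzmb, Il7r, Eomes, Ctla4, Tox and Ccl4 overlapped, and Nr4a2 was not among the genes thinned. Of the 7682 genes that had 20 counts or more in sum, 2.37% were at least 2-fold higher and 4.04% at least 2-fold lower in aged+AA. The median gene was at a log2 ratio of -0.03.

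Gzma was at 4220 CPM in aged+AA, against 2614 CPM in aged, a ratio of 1.61 (1.54 to 1.69). A Gzma UMI was found in 132 of 209 aged+AA cells, against 88 of 185 aged cells. After thinning every cell to 1500 UMIs these shares were 59.1% (52.1 to 65.9) and 44.3% (37.0 to 51.8), with 1.52% and 2.34% in B cells. Gzmb was at 594 CPM, against 356 CPM, a ratio of 1.67 (1.46 to 1.90). Its thinned shares were 41.8% (35.0 to 48.8) and 34.6% (27.8 to 41.9), with overlapping intervals, and 0.607% and 0.609% in B cells. In the other CD8 cells the same genes went the opposite way, with ratios of 0.295 for Gzma and 0.288 for Gzmb. The gate ratios without the 3 kinds of cells were 1.58 and 1.51.

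Perforin and Nkg7 were not higher beyond counting error. Prf1, which encodes perforin, was at 125 CPM in aged+AA, against 154 CPM in aged (ratio 0.815, 0.645 to 1.03). Nkg7 was at a ratio of 0.998 (0.948 to 1.05). Gzmm, another granule protease, was at a ratio of 1.23 (0.915 to 1.67). Of the 15 granzyme and granule genes tested, Gzma and Gzmb included, 0 reached 2-fold in either direction, 11 lay above the median gene, and their median log2 ratio was 0.13.

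Ctla4, Nr4a1, Nr4a2 and Rgs16 of the list of inhibitory receptors and exhaustion were lower in aged+AA. Ctla4 was at 50.02 CPM in aged+AA, against 98.7 CPM in aged, a ratio of 0.507 (0.362 to 0.706), but among cells without Gzmk its log2 ratio was 0.19. Nr4a1, an early receptor-signal gene, was at 36.7 CPM, against 79.0 CPM (0.465, 0.315 to 0.681), and its relative Nr4a2 at 53.1 CPM, against 96.5 CPM (0.551, 0.395 to 0.764). Rgs16, a G-protein regulator, was at 9.38 CPM, against 29.6 CPM (0.317, 0.146 to 0.647). These 4 intervals lay below 1, but without the 3 kinds of cells Nr4a1 was at 20.5 CPM, against 35.6 CPM, and its interval included 1 (0.577, 0.3004 to 1.11). Lists of receptor signalling did not move with them: of 27 genes of T-cell receptor signalling 0 were 2-fold apart (median -0.12), and of 25 immediate early genes 2 were at least 2-fold higher and 3 lower (median -0.08).

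Tox was at 69.6 CPM in aged+AA, against 105 CPM in aged, a ratio of 0.661 (0.490 to 0.891). The share of cells with a Tox UMI was not lower after thinning. It was 12.5% (8.33 to 17.8) in aged+AA and 11.9% (7.60 to 17.4) in aged. Pdcd1 was sparse, with 16 UMIs in aged+AA and 22 in aged, and its ratio of 0.518 (0.254 to 1.03) included 1. Of 15 genes of this list tested, 4 were at least 2-fold lower and 0 at least 2-fold higher, with a median log2 ratio of -0.84. Without the 3 kinds of cells, 7 of 12 were at least 2-fold lower, when 4.97% of all genes were, and the median was -1.05. The same list had medians of -0.01 in the other CD8 cells, -0.34 in CD8 cells with Ccl5 alone, -0.41 in CD4 cells and -0.54 in B cells.

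Among transcription factors, Eomes was at 91.4 CPM in aged+AA, against 167 CPM in aged, a ratio of 0.549 (0.427 to 0.703). In other CD8 cells of the same libraries it was at a ratio of 0.904. Tbx21, which encodes the related factor T-bet, was at 52.4 CPM, against 31.8 CPM (1.65, 1.05 to 2.64), but at 1.20 without the 3 kinds of cells and, at a log2 ratio of -0.43, lower in cells without Gzmk. Zeb2 was at 222 CPM, against 268 CPM (0.830, 0.697 to 0.988).

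The chemokine genes Ccl3 and Ccl4, whose products recruit monocytes and T cells, were lower in aged+AA. Ccl4 was at 183 CPM, against 361 CPM, a ratio of 0.507 (0.427 to 0.601). Ccl3 was at 30.5 CPM, against 65.8 CPM (0.463, 0.301 to 0.705), and at 0.775 without the 3 kinds of cells. Both genes were also lower in aged+AA among B cells, at ratios of 0.180 for Ccl4 and 0.127 for Ccl3. Their level in free RNA of the aged library was 604 and 260 CPM. Ifng did not differ beyond counting error (77.4 CPM, against 85.5 CPM; ratio 0.905, 0.666 to 1.23).

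Ccr7 was at 127 CPM in aged+AA, against 23 CPM in aged, a ratio of 5.50 (3.48 to 9.12). In other CD8 cells it was at 583 CPM, against 468 CPM, a ratio of 1.25. Il7r, the interleukin 7 receptor, was at 312 CPM in the aged+AA gate, against 171 CPM in the aged gate (1.82, 1.51 to 2.21), and Lef1 at 108 CPM, against 70.2 CPM (1.54, 1.13 to 2.10). Igfbp4, a naive-cell gene, had 25 UMIs in aged+AA and 3 in aged, a ratio of 5.94 (1.81 to 30.7).

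This did not extend to the whole naive list. Tcf7, the factor of memory and naive renewal, was at 166 CPM in aged+AA, against 161 CPM in aged (1.03, 0.833 to 1.28). Of 21 naive and stem-like genes tested, 3 were at least 2-fold higher and 2 at least 2-fold lower. Cells with 3 or more UMIs of Ccr7, Lef1, Dapl1 and Igfbp4 numbered 35 of 209 in aged+AA and 8 of 185 in aged, with median depths of 9236 and 8888 UMIs.

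Several differences between these 2 gates were found in other cell types as well. Jun, a subunit of the AP-1 factor, was at 145 CPM in aged+AA, against 48.2 CPM in aged, a ratio of 3.00 (2.15 to 4.26) in the gate, 1.56 in other CD8 cells and 2.46 in B cells. Nlrc5, the activator of MHC class I genes, was at a ratio of 0.538 in the gate, 0.530 in other CD8 cells and 0.576 in B cells. Ifi27l2a, an interferon-induced gene, was at 0.640, 0.521 and 0.644 in the same order.

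Myh9, the non-muscle myosin heavy chain that the series title names as a protein ascorbic acid binds, was at 363 CPM in aged+AA, 441 CPM in aged and 267 CPM in young gate cells. Its ratio was 0.823 (0.718 to 0.943) for aged+AA over aged and 1.65 (1.31 to 2.11) for aged over young. In other CD8 cells the first ratio was 0.797 and in B cells 0.793. None of the 23 genes of non-muscle myosin and actin tested was 2-fold apart in either comparison. Of 21 genes of ascorbate transport and ascorbate-dependent dioxygenases, 0 were at least 2-fold higher and 1 at least 2-fold lower in aged+AA over aged. Tet2, a DNA-demethylating dioxygenase, was at 38.3 CPM in aged+AA, against 64.7 CPM in aged (0.592, 0.397 to 0.879), and the ascorbate transporter gene Slc23a2 had 21 UMIs in aged+AA and 11 in aged.

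The strongest names of this comparison on the lower side were transcripts of myeloid cells: Retnlg, S100a9, S100a8, Lyz2, Alox5ap, Ifitm3, Cd300c2 and Fn1. S100a9 was at 12.5 CPM in aged+AA, 628 CPM in aged and 0 CPM in young gate cells, and Lyz2, the lysozyme of monocytes and neutrophils, at 12.5, 406 and 0 CPM. Free RNA in the aged library held 4047 CPM of S100a9 and 3727 CPM of Lyz2, against 840 and 239 CPM in aged+AA and 365 and 184 CPM in young. On the higher side, Klra4 (24 UMIs in 4 aged+AA cells, 0 in aged) was at least 5.70-fold higher against a floor of 3 counts per library. Srm, Tmem42 and Noa1 rested on 25, 22 and 37 UMIs in aged+AA, against 2, 2 and 6 in aged.

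**Figure D5:**
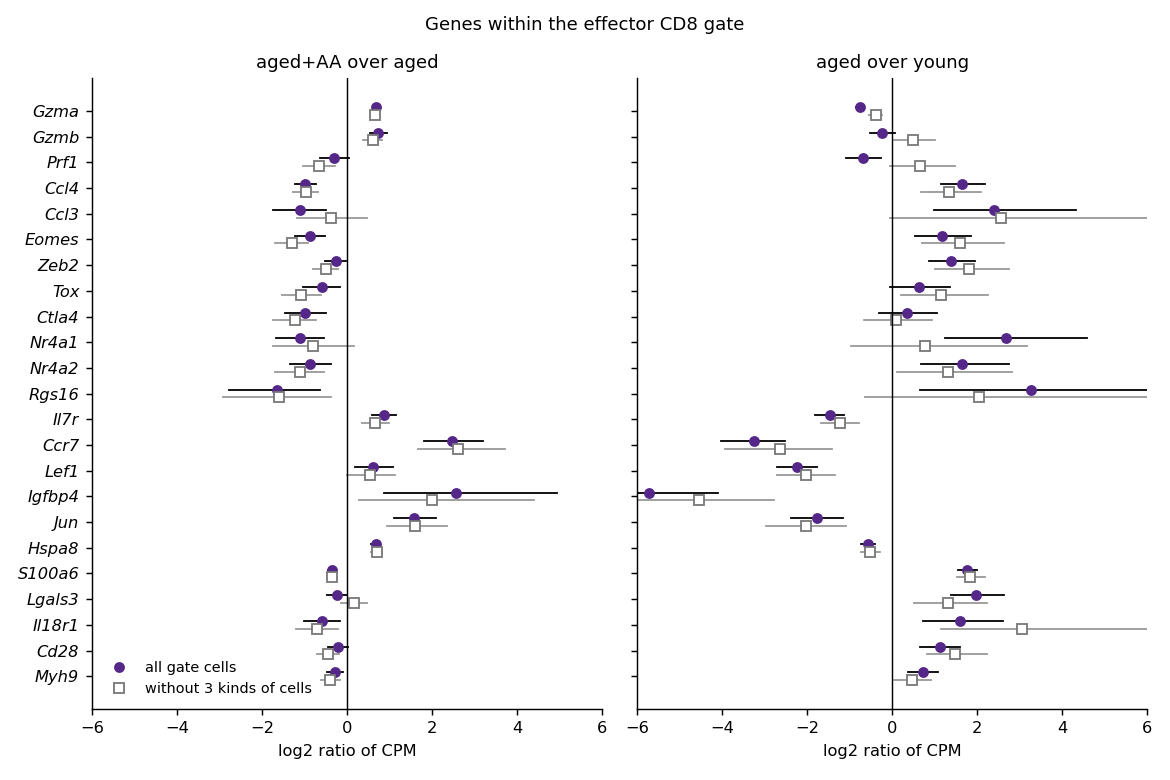
The log2 ratio of CPM within the effector CD8 gate for 23 genes, aged+AA over aged on the left and aged over young on the right; filled circles are all gate cells, open squares leave out cells with NK, gamma-delta, monocyte or high haemoglobin transcripts, and lines are exact 95% intervals of counting error. Gzma, Gzmb, Il7r, Ccr7 and Jun lie above 0 on the left, while Ccl4, Eomes, Tox and Ctla4 lie below it with either set of cells.

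The second comparison, aged against young, asks how effector cells of old blood differ from those of young blood, and it rests on the mixed 40 young cells. With that limit, and in summed counts, aged gate cells had more Zeb2, Eomes, Ccl4, Cd28, Il18r1, S100a6 and Lgals3. They had less Il7r, Lef1 and Ccr7. After thinning to an equal depth, the shares of cells with a UMI had separate intervals for Cd28 and Ccr7. Those of Zeb2, Eomes, Ccl4, S100a6, Lgals3, Il7r and Lef1 overlapped, and Il18r1 was not among the genes thinned. Of the tested genes 14.3% were at least 2-fold higher and 5.04% at least 2-fold lower in aged. The median gene was at a log2 ratio of 0.15, so single values are to be read against that shift.

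Zeb2 was at 268 CPM in aged, against 102 CPM in young, a ratio of 2.61 (1.81 to 3.88), and at 3.52 without the 3 kinds of cells. Eomes was at 167 CPM, against 74.5 CPM (2.24, 1.45 to 3.6), and at 3.02 without them. Ccl4 was at 361 CPM, against 115 CPM (3.14, 2.23 to 4.54), and at 2.55 without them. Cd28, the costimulatory receptor, was at 316 CPM, against 146 CPM (2.17, 1.59 to 3.01), and Il18r1, the interleukin 18 receptor, at 113 CPM, against 37.2 CPM (3.03, 1.66 to 6.06). Leaving those cells out gave 2.80 for Cd28 and 8.36 for Il18r1, so in summed counts these 5 genes were higher in aged either way. The ratios with those cells left out rest on 22 young cells with 144598 UMIs in sum.

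S100a6, a calcium-binding protein gene, was at 1932 CPM in aged, against 568 CPM in young, a ratio of 3.4 (2.92 to 3.98), and Lgals3, which encodes galectin 3, at 306 CPM, against 77.6 CPM (3.94, 2.62 to 6.20). Of 21 memory and migration genes tested, 5 were at least 2-fold higher and 0 at least 2-fold lower, with a median log2 ratio of 0.61. S100a6 was also higher in aged among other CD8 cells, at a ratio of 10.1, and among B cells, at 2.97. Of 32 interferon response genes, 7 were at least 2-fold higher and 0 lower, with a median of 0.54. Of all genes tested, 14.3% were at least 2-fold higher. The interferon median was also 0.45 in other CD8 cells, 0.54 in CD4 cells and 0.43 in B cells. The memory and migration median was 1.08, 1.98 and 0.61 in those cells, so neither shift was particular to the gate.

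Granule protease genes went different ways. Gzmm was at 80.0 CPM in aged, against 37.2 CPM in young, a ratio of 2.15 (1.16 to 4.35), and at 1.49 (0.726 to 3.43) without the 3 kinds of cells. Gzma was at 2614 CPM in aged, against 4415 CPM in young, a ratio of 0.592 (0.554 to 0.633), and at 0.763 without the 3 kinds of cells. Gzmb was at 356 CPM, against 419 CPM (0.851, 0.694 to 1.05), and Prf1 at 154 CPM, against 245 CPM (0.626, 0.472 to 0.836). Both turned above 1 when the 3 kinds of cells were left out, at 1.42 (1.02 to 2.02) for Gzmb and 1.59 for Prf1. Other CD8 cells of aged blood had more Gzma than those of young blood, at a ratio of 4.95.

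Part of the naive list was lower in aged. Il7r was at 171 CPM in aged, against 475 CPM in young, a ratio of 0.360 (0.286 to 0.453), and Lef1 at 70.2 CPM, against 329 CPM (0.213, 0.154 to 0.294). Ccr7 was at 23 CPM, against 217 CPM (0.106, 0.0618 to 0.175). Of 21 genes, 9 were at least 2-fold lower and 1 at least 2-fold higher, with a median log2 ratio of -0.54. Without the 3 kinds of cells, 9 of 20 were at least 2-fold lower, when 6.68% of all genes were, and Il7r, Lef1 and Ccr7 were at 0.426, 0.244 and 0.161. Cells with 3 or more UMIs of Ccr7, Lef1, Dapl1 and Igfbp4 numbered 8 of 185 in aged and 20 of 40 in young. Their median depths were 8887.5 and 10708.5 UMIs. The 3 kinds of cells are not defined by these genes, and the part of naive-marked cells in these differences was not tested.

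The killer receptor genes changed direction with the cells left out. Of 17 tested, 0 were at least 2-fold higher and 5 at least 2-fold lower in aged, with a median log2 ratio of -0.51. When the 3 kinds of cells were left out, 5 of 13 were at least 2-fold higher and 0 lower, with a median of 0.85, and 17.2% of all genes were at least 2-fold higher. The median was 0.65 with only the Ncr1, Klrb1c or Trdc cells left out, -0.30 with only the monocyte-marked cells and -0.26 with only the high-haemoglobin cells left out; Ncr1 and Klrb1c are themselves on the list. Ncr1 was at 9.87 CPM in aged, against 71.4 CPM in young, and Klra8, an activating receptor of the Ly49 family, at 9.87 CPM, against 139.6 CPM.

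Mitochondrially encoded genes were lower in aged, with all 13 below the median gene, 5 of them at least 2-fold lower and a median log2 ratio of -0.77. The same median was -0.68 in other CD8 cells and -0.85 in B cells. The rule for naming genes put Birc5 and 7 myeloid transcripts (S100a9, S100a8, Lyz2, Retnlg, Ifitm3, Alox5ap and Il1b) at the top of the higher side, with 0 UMIs of each in young. Its lower side was Klra4, Igfbp4, Serpinb9b, Klra8, Irf8, Dapl1, Rgs10 and Ccr7.

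The third comparison, aged+AA against young, shares both libraries with the other comparisons. Of the tested genes 10.7% were at least 2-fold higher and 4.28% at least 2-fold lower in aged+AA (13.1% and 6.6% without the 3 kinds of cells). Gzma was at 4220 CPM in aged+AA, against 4415 CPM in young (0.956, 0.901 to 1.01), and Gzmb at 594 CPM, against 419 CPM (1.42, 1.18 to 1.72). Eomes was at 91.4 CPM, against 74.5 CPM (1.23, 0.787 to 1.99), and Il7r at 312 CPM, against 475 CPM (0.657, 0.544 to 0.797). Of these, Gzma and Eomes in aged+AA did not differ from young beyond counting error. Leaving the 3 kinds of cells out, Gzma was at 1.21 (1.10 to 1.32), Gzmb at 2.14 (1.57 to 3.00) and Eomes at 1.23 (0.657 to 2.54). These intervals cover the counting of UMIs and not the sampling of cells, of which 22 were young. They therefore cannot decide whether Gzma differed. In all gate cells thinned to an equal depth, Gzma was found in 59.1% (52.1 to 65.9) of aged+AA and 65% (48.3 to 79.4) of young cells.

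Cell-cycle genes led the higher side of this comparison. Mki67, which encodes the proliferation marker Ki-67, was at 44.5 CPM in aged+AA, 76.8 CPM in aged and 3.1 CPM in young, from 14 of 209, 12 of 185 and 1 of 40 cells. B cells held a Mki67 UMI in 0.444%, 1.21% and 0.370% of cells. Top2a, the replication topoisomerase, was at 85.2, 91.0 and 15.5 CPM, and Birc5 (survivin) at 49.2, 87.7 and 0 CPM, found in 9 aged+AA and 6 aged cells. Hist1h1b and Pclaf were likewise higher in both aged libraries, from at most 28 and 16 cells. Leaving the 3 kinds of cells out, the aged over young log2 ratios of Hist1h1b and Pclaf turned below 0, to -0.70 and -1.67. The median of 18 proliferation genes fell from 0.46 to -0.07 in that comparison. In aged+AA over aged it rose from 0.14 to 0.79, with 7 genes at least 2-fold higher and 0 lower, when 2.93% of all genes were higher. Over all alternatives, the aged+AA over aged log2 ratio ran from -1.22 to 4.45 for Mki67 and from -1.42 to 4.92 for Birc5. The MHC class II genes Cd74 and H2-Ab1, which B cells express, stood at 100.04 and 50.8 CPM in aged+AA, 99.8 and 36.2 CPM in aged and 12.4 and 3.1 CPM in young, beside B-cell markers that summed to 525, 500 and 102 CPM. Shkbp1 completed the higher side, and Serpinb9b, Irf8, Cma1, Igfbp4, Ncr1, Fcer1g, Spry2 and Rgs10 the lower side.

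T-cell receptor segments were read too seldom to describe clones. A beta-chain V segment was read in 32 of 209 aged+AA, 21 of 185 aged and 13 of 40 young gate cells. The most frequent one was Trbv13-2 in aged+AA (7 cells), and Trbv12-2 in aged (3 cells) and young (3 cells). None reached 8% of a library's gate cells.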

How the data were processed

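Deposited were unfiltered matrices of raw UMI counts, which the authors made with Cell Ranger 4 according to the file headers. Seurat 3.1.0 and mm10 are named in the submitters' processing notes. The filters the authors set are not given in the sources used here. Per the labels, cells were separated over lymphocyte separation medium and loaded with the 10x 3′ v3 kit.

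From these counts, barcodes with at least 500 UMIs, 250 genes and at most 10% mitochondrial UMIs were kept in Python 3.11.15 (numpy 2.4.6, scipy 1.17.1). This left 11713 aged+AA, 10204 aged and 9147 young cells, and the effector gate held 1279507, 911936 and 322330 UMIs. No gate barcode was shared between libraries, and at most 33 kept barcodes were. Doublets were left in, and their removal with Scrublet (scanpy 1.11.5) was an alternative. Counts were summed per library and scaled to CPM. Ratios have exact conditional intervals, shares exact Clopper-Pearson intervals, and list medians use log2 ratios with 0.5 added to each count. A gene was tested with at least 20 counts over the 3 libraries (50 against other CD8 cells) and called at 2-fold. Folds against 0 UMIs are lower bounds that put 3 counts in their place. Free RNA was the sum of barcodes with 10 to 100 UMIs. With 1 library per group there was no p-value. The ratio step was tested on simulated counts.

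In each comparison within the gate, the top 8 each way by the interval bound nearest to 1 were named if the higher of both libraries held 20 counts, beside list members with most counts or extreme ratios and 13 further genes. Genes of the gate over other CD8 cells, genes of the cells without Gzmk, and Tet2 and Slc23a2 were chosen after their values were seen. Some genes that the rule names are not reported here. The members and lists were chosen with earlier results of these data known.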

Additional observations from a re-analysis of the deposited data

Results flagged for a closer look

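S100a8 and S100a9, granule genes of neutrophils and monocytes, went opposite ways over the other CD8 cells of the same library: 3.22-fold and 3.35-fold higher in the aged gate, and with no UMI in the young gate, a ratio of 0 whose exact interval reaches 0.271 for S100a8 and 0.274 for S100a9. Trdc, the gamma-delta receptor constant gene, was at a ratio of 0.167 in the aged gate and 7.68 in the young gate, the last from 3 of 40 cells. These differences between libraries were not tested.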

How the results depend on the processing

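No paired analysis was possible because each group was 1 library. The main limits are that single library, the unknown number of mice, and 40 young cells of which 17 held a Ncr1, Klrb1c or Trdc UMI. Of 72 share ratios under alternatives, 66 stayed within the main interval.

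With the mitochondrial limit at 5%, aged over young was 2.64 of kept, 6.61 of CD8 and 6.89 of T gate cells. Without the 3 kinds of cells (chosen after seeing the data), aged+AA over young was 6.42, 7.01 and 9.57. Thinned to 1500 UMIs before gating, Gzmk was in 57.9% of aged gate cells.

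With at least 100 counts, 6.89% of genes were at least 2-fold higher and 1.98% lower in aged over young, 0.309% and 0.958% in aged+AA over aged, and 4.23% and 1.08% in aged+AA over young. With no minimum, 19.4% were lower in aged over young, 12.9% higher and 14.8% lower in aged+AA over aged, and 18.6% lower in aged+AA over young. The lower share was 8.84% (aged over young) and 7.85% (aged+AA over young) in cells with Gzmk, 6.60% (aged+AA over aged) in cells without it, 7.81% (aged over young) with ribosomal and mitochondrial UMIs out of the total, and, for aged+AA over young, 6.75% at 2 or more UMIs of the 3 gate genes and 6.60% without the 3 kinds of cells.

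Reversed log2 ratios for aged over young were Pdcd1 at -0.58 (2 or more UMIs of the 3 genes), Klrb1c at 0.14 (cells with Gzmk), Klra8 at 1.18 (Ncr1, Klrb1c and Trdc cells left out), and Klra8 at 1.5, Hist1h1b at -0.70 and Pclaf at -1.67 (all 3 kinds left out). For aged+AA over aged they were Tyrobp at 0.030 (doublets removed) and 1.08 and Fcer1g at 0.046 (monocyte cells left out). Beyond the cells each alternative removes, the cause was not tested.

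Leaving out cells with haemoglobin beta, Lyz2, S100a8, S100a9, Igkc or Ighm left 0 aged+AA, 0 aged and 2 young cells and gave no value.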
